A study of Arabidopsis thaliana with 6 samples.

Results

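The genes described here are 7 transcription factor genes of Arabidopsis thaliana that are known from work on low phosphate. They were named by gene ID and not filtered by a measured value, but earlier results of these data were already known. They are WRKY75 (AT5G13080), WRKY45 (AT3G01970), WRKY6 (AT1G62300), WRKY42 (AT4G04450), ZAT6 (AT5G04340), MYB62 (AT1G68320) and BHLH32 (AT3G25710), and all 7 were among the 29613 gene IDs counted. PolyA RNA of roots was sequenced in 6 libraries, 3 of wild type plants of ecotype Col-0 and 3 of a line labelled 35S:NPC48, in which NPC48 is placed behind 35S, a promoter from cauliflower mosaic virus that is strong in most plant tissues. The labels name no ecotype for the 35S:NPC48 line and do not say whether it is a single transformant, and NPC48 itself matched none of the gene IDs, so its overexpression was not checked here. All plants were untreated, at Boyes stage 1.0, on a dilute MS medium with 500 µM KH2PO4, under days of 16 h at 24 °C and nights of 8 h at 21 °C and at 33% humidity. Each genotype had replicates 1, 2 and 3, which carry the letters A, B and D in the titles. No label says that they came from separate cultures, so every p-value below rests on library-to-library spread, part or all of which may be technical.

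Plants that run short of phosphate release stores, take up more phosphate through transporters of the PHT1 family and reshape the root. Much of this response is driven by PHR1, a MYB-type factor that binds a sequence called P1BS, and the regulators described here act beside or below it. WRKY factors share a DNA-binding domain that recognises the W-box. WRKY75 is induced by low phosphate, promotes phosphate uptake and restrains lateral roots and root hairs, and WRKY45 is induced by low phosphate and activates the transporter gene PHT1;1. WRKY6 and WRKY42 repress PHO1, which loads phosphate into the xylem, and both proteins are degraded when phosphate is low, a step that RNA counts do not measure. ZAT6 is a zinc finger repressor that limits primary root growth, MYB62 is an R2R3 MYB factor that lowers gibberellin synthesis, and BHLH32 keeps phosphate starvation genes such as PPCK1 down. BHLH32 is also known as TMO5, a factor of vascular cell division in the root.

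The 300 bases upstream of the annotated gene start are shown for the 3 genes whose window held a full W-box or a P1BS motif, because a gene with such a motif can itself be a target of these factors. The windows were read from the RefSeq assembly TAIR10.1 by gene ID, and each is written 5' to 3' on the strand of the gene. Capitals mark the W-box, searched as TTGACC or TTGACT, in WRKY45 and WRKY75, and P1BS, searched as GNATATNC, in ZAT6. All 3 genes lie on the minus strand, with windows at chr3:327413-327712 for WRKY45, chr5:4151202-4151501 for WRKY75 and chr5:1217363-1217662 for ZAT6.
WRKY45: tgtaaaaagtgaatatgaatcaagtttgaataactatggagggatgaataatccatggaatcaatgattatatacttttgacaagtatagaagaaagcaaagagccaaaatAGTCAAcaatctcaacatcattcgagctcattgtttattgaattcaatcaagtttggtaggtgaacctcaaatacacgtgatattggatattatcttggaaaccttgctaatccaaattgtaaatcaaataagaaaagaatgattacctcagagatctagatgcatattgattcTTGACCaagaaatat
WRKY75: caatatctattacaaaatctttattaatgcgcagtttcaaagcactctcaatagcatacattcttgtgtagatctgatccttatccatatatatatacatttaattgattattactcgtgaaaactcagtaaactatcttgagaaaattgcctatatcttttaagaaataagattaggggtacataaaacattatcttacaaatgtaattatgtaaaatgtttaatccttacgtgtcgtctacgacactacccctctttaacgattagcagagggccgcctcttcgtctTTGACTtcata
ZAT6: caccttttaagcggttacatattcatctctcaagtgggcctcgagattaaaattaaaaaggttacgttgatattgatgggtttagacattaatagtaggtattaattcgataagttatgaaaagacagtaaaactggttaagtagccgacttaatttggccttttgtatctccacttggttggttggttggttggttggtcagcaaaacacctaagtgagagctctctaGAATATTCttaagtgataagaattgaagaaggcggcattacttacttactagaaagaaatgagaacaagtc
Counted back from the annotated start, WRKY45 had W-boxes at -189 to -184 on the opposite strand and at -15 to -10 on the gene's strand. WRKY75 had a W-box at -11 to -6, and ZAT6 had a P1BS at -71 to -64 that reads the same on both strands. With both strands searched, 32.3% of the 27443 windows of protein-coding genes held a W-box and 6.5% held a P1BS. The shorter core TTGAC, which is part of every W-box, was found in 50.4% of windows, among them those of WRKY6, WRKY42 and MYB62. The BHLH32 window held none of these 3 motifs. A match is a description of these letters and not evidence of binding.

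The shallowest library, 35S:NPC48 replicate 1, held 9479418 reads on genes, and the rest held 20120659 to 23830604. Expression is given as CPM, the deposited counts scaled to the TMM-adjusted size of each library, and 19608 genes had enough reads to be tested. A count of 3 reads was worth 0.126 to 0.320 CPM, depending on the library. The replicate 2 libraries of both genotypes stood apart from the rest in phosphate starvation markers. SPX1, an inhibitor of PHR1 that is itself induced by low phosphate, stood at 1266 CPM in wild type replicate 2 and 1004 CPM in 35S:NPC48 replicate 2, against 6.78 to 12.5 CPM in the other 4 libraries. IPS1, a non-coding RNA induced by low phosphate, stood at 393 and 313 CPM in the same 2 libraries and at 0.267 to 0.650 CPM in the other 4. The labels give all 6 libraries the same medium, and the source of this difference was not tested. The endodermis gene CASP1, at 222 to 434 CPM, and the other 5 root markers were present in every library. Summed CPM of 12 shoot markers ranged from 61.3 to 163 in wild type and from 95.8 to 186 in 35S:NPC48.

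Compared per kilobase of exon, the regulators differed widely in level. ZAT6 was highest, with a median over the 6 libraries of 51.8 CPM per kb, followed by WRKY6 at 33.1, BHLH32 at 30.4, WRKY75 at 22.9, WRKY45 at 11.9 and WRKY42 at 1.03 CPM per kb. The library ranges of ZAT6 and WRKY6 did not overlap, nor did those of WRKY45 and WRKY42. The ranges of WRKY6 and BHLH32, of BHLH32 and WRKY75, and of WRKY75 and WRKY45 overlapped over the 6 libraries. Library by library, BHLH32 exceeded WRKY75 in 6 of 6, while WRKY6 exceeded BHLH32 in 5 of 6 and WRKY75 exceeded WRKY45 in 5 of 6, and none of these differences in level was tested. MYB62 had 1 read in wild type replicate 2 and 0 in the other 5 libraries, which is 0.0474 CPM at most, and it was not tested. A count of 0 allows up to 0.320 CPM in the shallowest library. The gene models lie on TAIR10.1 chromosome 5 for WRKY75 and ZAT6, chromosome 3 for WRKY45 and BHLH32, chromosome 1 for WRKY6 and MYB62 and chromosome 4 for WRKY42, and none of the 7 overlaps another annotated gene.

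WRKY45 was the regulator with the largest difference between the genotypes. Wild type replicates 1, 2 and 3 had 5.88, 19.0 and 5.22 CPM of WRKY45, and the same replicates of 35S:NPC48 had 16.0, 40.6 and 16.3 CPM. Both replicate 2 libraries were high, and within each replicate number the 35S:NPC48 library exceeded its wild type counterpart, by 2.72, 2.14 and 3.12 times in replicates 1, 2 and 3. The groups overlapped, because wild type replicate 2 lay above replicates 1 and 3 of 35S:NPC48. Mean levels were 10.0 ± 7.75 CPM for wild type and 24.3 ± 14.1 CPM for 35S:NPC48 (SD over 3 libraries).

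The test of that difference turned on whether the replicate number entered the model. The labels do not say that equal numbers pair the libraries, so the block rests on that reading. In edgeR's quasi-likelihood test with genotype as the single term, the log2 fold change was 1.29 ± 0.58 (SE; 95% interval from -0.07 to 2.64) with an adjusted p of 1.00. In that fit 0 of the 6 tested regulators were called at an adjusted p under 0.05, as with DESeq2 and limma-voom, and 0 had an unadjusted p under 0.05, against 2 calls, or 0.0102%, and 695 unadjusted ones over all tested genes. In the fit blocked by replicate number, the log2 fold change was 1.37 ± 0.14 (interval from 1.04 to 1.70), or 2.59-fold, with an adjusted p of 0.00436 in edgeR. WRKY45 was thus the 1 of 6 regulators called higher with the block, against 0.841% of all tested genes called higher and 1.21% called in either direction. Of the 165 genes called higher over all tested genes, 122 lie in the chromosome 3 stretch described below, which holds WRKY45. Adjusted p ranged from 1.36e-06 to 0.0260 over the blocked fits that left out both libraries of a replicate number. Without the 2 replicate 2 libraries and without a block, a setting added after the data had been seen, the log2 fold change was 1.53 with an adjusted p of 0.0384 in edgeR. The direction was the same under every setting tried, but leaving out single libraries without a block moved the value between 0.68, without 35S:NPC48 replicate 2, and 2.14, without wild type replicate 2.

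**Figure D1:**
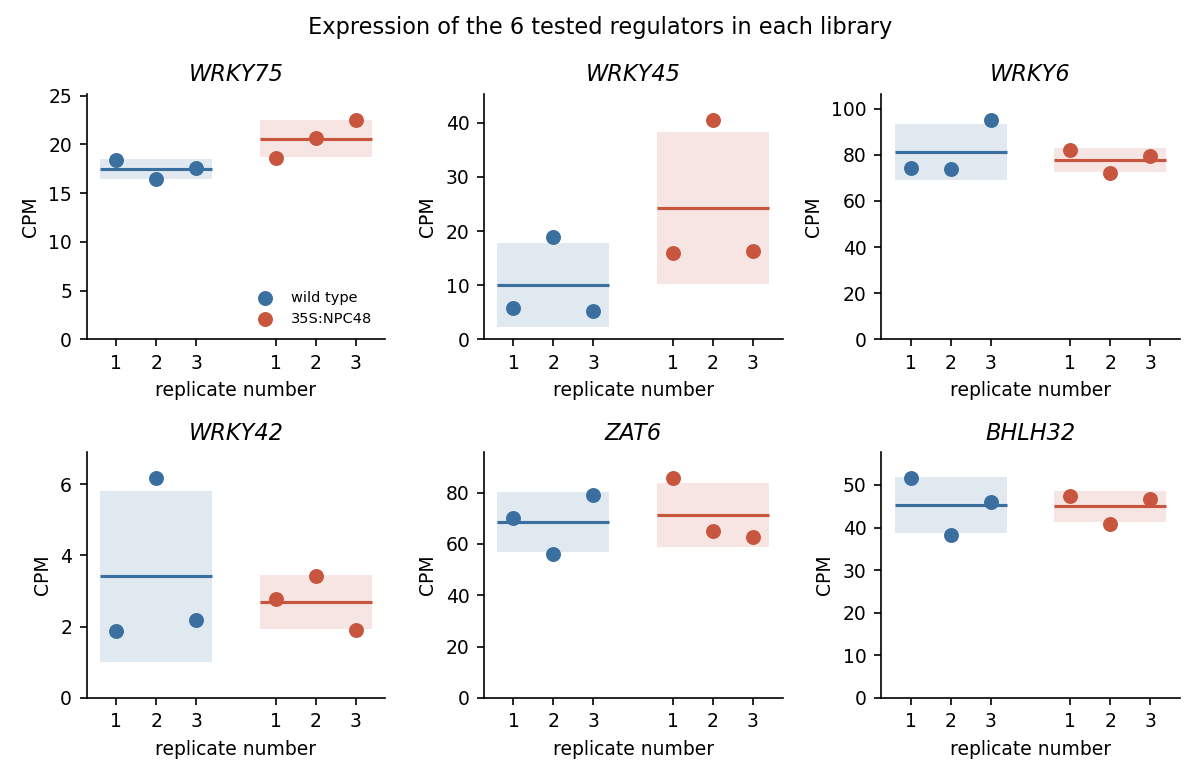
CPM of the 6 tested regulators in each library, by genotype (color) and replicate number (x axis); lines are group means and shaded bands are ± 1 SD over 3 libraries. WRKY45 reaches 19.0 CPM in wild type replicate 2 and 40.6 CPM in 35S:NPC48 replicate 2, while ZAT6, WRKY6 and BHLH32 stay between 38.3 and 95.2 CPM in all 6 libraries.

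WRKY45 lies in a stretch of chromosome 3, from AT3G01280 to AT3G03010, whose genes were higher in 35S:NPC48 as a body. The bounds of the stretch came from an earlier look at these same data, so its level is a description and not independent evidence. WRKY45 is the 63rd of its 166 tested genes. The median log2 fold change of the stretch was 0.98 with the block (quartiles 0.86 and 1.11), or 1.97-fold, and 122 of the 166 genes, or 73.5%, were called higher. Without the block, edgeR called 0 of them higher, as it did of all tested genes, and the stretch median was 0.98 there too. With the block, WRKY45 lay 0.39 above the stretch median and ranked 12th from the highest, and without it 0.30 above and 14th. In replicates 1, 2 and 3 taken alone, its log2 difference between genotypes was 1.43, 1.09 and 1.62, against stretch medians of 1.01, 1.00 and 0.93. It ranked 13th, 62nd and 8th among the 166, so in replicate 2 it was close to the middle of the stretch and in the other 2 replicates in its upper part.

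The tested genes on either side of WRKY45 were also higher in 35S:NPC48. AT3G01950 had wild type levels of 17.1, 24.4 and 20.1 CPM and 35S:NPC48 levels of 42.6, 71.3 and 31.5 CPM, with a blocked log2 fold change of 1.18 ± 0.17 (edgeR adjusted p 0.0168). AT3G01980 measured 7.97, 11.6 and 11.1 CPM across wild type, and 24.6, 30.0 and 19.9 CPM across 35S:NPC48, with a blocked log2 fold change of 1.27 ± 0.16 (edgeR adjusted p 0.00990). For both neighbours every 35S:NPC48 library lay above every wild type library, as for 3.94% of all tested genes, with 7.76% not overlapping in either direction. Without the replicate 2 libraries the blocked adjusted p was 0.0725 for AT3G01950 and 0.0567 for AT3G01980 in edgeR. Without the block edgeR called neither (adjusted p 0.439 and 0.155), and DESeq2 called both (0.0168 and 0.000250). The genotype difference of WRKY45 was of about the size seen in these nearest neighbours, but not in every gene nearby. The next tested genes outward, named after their values were seen, were AT3G01940 and ACR6. They had blocked log2 fold changes of 1.03 ± 0.27 and 0.11 ± 0.21 (edgeR adjusted p 0.173 and 0.893). A difference of WRKY45 beyond that of the stretch was not tested. In replicate 2 against replicate 1, the log2 fold change was 0.64 for AT3G01950 (edgeR adjusted p 0.0605) and 0.41 for AT3G01980 (adjusted p 0.188), and the stretch median was 0.04, against 1.52 for WRKY45. In replicate 2 against replicate 3, it was 0.74 for AT3G01950 (edgeR adjusted p 0.0367) and 0.33 for AT3G01980 (adjusted p 0.259), with a stretch median of 0.10. WRKY45 ranked 8th and 6th of the 166 genes in these contrasts. The AT3G01950 call was lost without 35S:NPC48 replicate 2, at 0.45, and without 35S:NPC48 replicate 3, at 0.33. It was also lost without the genotype term, at 0.89 (edgeR adjusted p 0.299).

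**Figure D2:**
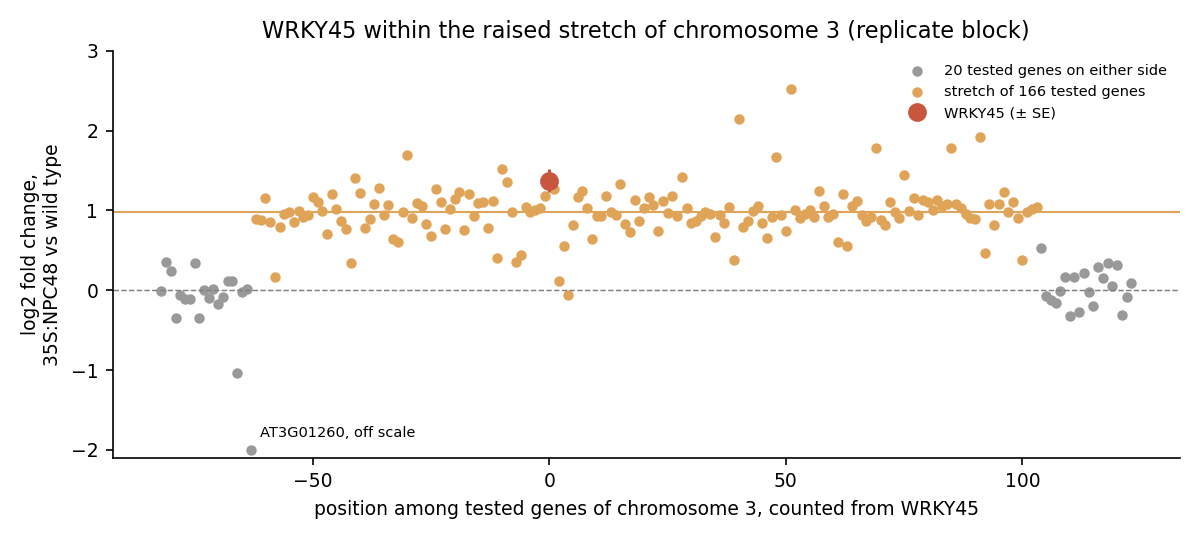
Blocked log2 fold change of 35S:NPC48 against wild type (y axis) for the 166 tested genes of the chromosome 3 stretch and 20 tested genes on either side, in gene order counted from WRKY45 (x axis); the orange line is the stretch median of 0.98 and the bar on WRKY45 is ± 1 SE. WRKY45 at 1.37 sits in the upper part of the stretch, and the flanking genes scatter around 0, apart from AT3G01260, drawn at the lower edge because its value is off the scale.

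WRKY75, the closest relative of WRKY45 among the regulators, differed little between the genotypes. It had wild type levels of 18.4, 16.4 and 17.6 CPM and 35S:NPC48 levels of 18.6, 20.6 and 22.5 CPM. The 3 libraries of 35S:NPC48 lay just above all 3 of wild type, a pattern without overlap that 3.94% of tested genes showed in this direction and 7.76% in either. The log2 fold change was 0.24 ± 0.14 (interval from -0.09 to 0.57, edgeR adjusted p 1.00), and 0.24 ± 0.12 with the block (adjusted p 0.521). WRKY75 was thus not called, and the interval ended below the 0.98 of the chromosome 3 stretch.

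The phosphate export repressors WRKY6 and WRKY42 were likewise not called. WRKY6 had wild type levels of 74.3, 73.9 and 95.2 CPM and 35S:NPC48 levels of 82.0, 72.1 and 79.3 CPM, with a blocked log2 fold change of -0.05 ± 0.10 (interval from -0.29 to 0.19, edgeR adjusted p 0.894). WRKY42 was low, with wild type levels of 1.87, 6.16 and 2.19 CPM, 35S:NPC48 levels of 2.77, 3.41 and 1.90 CPM, and 26 to 130 reads a library. Its single high library was wild type replicate 2, and the genotype difference had no common sign, with 35S:NPC48 at 1.48, 0.554 and 0.868 times wild type in replicates 1, 2 and 3. The blocked log2 fold change of WRKY42 was -0.24 ± 0.30 (interval from -0.94 to 0.46, edgeR adjusted p 0.828), so either end of that interval was within its error.

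ZAT6 and BHLH32 were not called between the genotypes either. ZAT6 measured 70.1, 56.0 and 79.1 CPM across wild type, and 85.6, 65.2 and 62.8 CPM across 35S:NPC48, and its blocked log2 fold change was 0.06 ± 0.13 (interval from -0.25 to 0.36, edgeR adjusted p 0.917). BHLH32 had wild type levels of 51.6, 38.3 and 46.0 CPM and 35S:NPC48 levels of 47.4, 40.8 and 46.7 CPM, and its log2 fold change without the block was -0.01 ± 0.15 (interval from -0.36 to 0.34, edgeR adjusted p 1.00). With the block the log2 fold change of BHLH32 was -0.0022 ± 0.094 (edgeR adjusted p 0.997). For both ZAT6 and BHLH32 the libraries of the genotypes overlapped, and the lowest wild type library was replicate 2.

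Because replicate 2 stood apart in phosphate starvation markers, the regulators were also compared between replicate numbers, each pair of numbers with both genotypes in the fit. Each number holds 1 library per genotype, so every contrast sets 2 libraries against 2. WRKY45 was higher in replicate 2 than in replicate 1 by 1.52 ± 0.17 on the log2 scale, or 2.86-fold (edgeR adjusted p 0.00118), and than in replicate 3 by 1.57 ± 0.17, or 2.96-fold (adjusted p 0.000994). Wild type replicate 2 held 3.23 times the level of replicate 1 and 3.63 times that of replicate 3, and the ratios within 35S:NPC48 were 2.54 and 2.49. WRKY45 was the 1 of 6 tested regulators called higher between replicates 2 and 1, where 10.8% of all tested genes were called higher and 19.9% in either direction. A fit without the genotype term ended both calls (adjusted p 0.149 and 0.140), and leaving out any single library with the term kept ended neither.

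WRKY42 was the other regulator called, and less firmly. It was higher in replicate 2 than in replicate 3 by 1.21 ± 0.36 on the log2 scale (edgeR adjusted p 0.0466). Against replicate 1 it had 1.08 ± 0.37 and was not called (edgeR adjusted p 0.0783). With WRKY45 it made 2 of 6 regulators called higher between replicates 2 and 3, where 11.3% of all tested genes were called higher and 21.7% in either direction. The rise of WRKY42 was larger in wild type, with replicate 2 at 3.30 times replicate 1 and 2.81 times replicate 3, than in 35S:NPC48, with 1.23 and 1.80 times. Whether the genotypes differ in this rise cannot be tested with 1 library each. Without wild type replicate 2 the log2 fold change against replicate 3 fell to 0.65 with an adjusted p of 0.526, and adjusted p ranged from 0.0130 to 0.526 over all settings tried. The call was also lost without 35S:NPC48 replicate 2, without wild type replicate 3, with DESeq2, with limma-voom and without the genotype term. In the contrast with replicate 1, WRKY42 was called without 35S:NPC48 replicate 1 or without one of the replicate 3 libraries (edgeR adjusted p from 0.00612 to 0.0383).

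The other 4 tested regulators were not called in either contrast. WRKY75 had a log2 fold change of -0.02 (interval from -0.37 to 0.32) between replicates 2 and 1 and of -0.11 (interval from -0.45 to 0.22) between replicates 2 and 3. ZAT6 had -0.36 and -0.23, BHLH32 -0.33 and -0.23, and WRKY6 -0.10 and -0.26 in the same contrasts, with edgeR adjusted p from 0.0857 to 0.633. For BHLH32 the interval against replicate 1, from -0.59 to -0.06, left out 0, although its adjusted p of 0.0857 missed the threshold. Some of these results depended on a replicate 3 library. With either one of the replicate 3 libraries left out, BHLH32 at -0.35 and ZAT6 at -0.38 were called lower in replicate 2 than in replicate 1 (edgeR adjusted p from 0.00150 to 0.00729). Without 35S:NPC48 replicate 3, ZAT6 at -0.52 and WRKY6 at -0.42 were called lower in replicate 2 than in replicate 3 (edgeR adjusted p 0.000928 and 0.00622). Without wild type replicate 3, ZAT6 had 0.051 in that contrast (edgeR adjusted p 0.782).

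Between replicates 3 and 1, edgeR called 0 of the 6 regulators and 0%, or 0, of all tested genes, although 2659 genes had an unadjusted p under 0.05 and DESeq2 called 210. The fitted log2 fold changes of the regulators in that contrast lay between -0.12 for WRKY42 and 0.16 for WRKY6. Without wild type replicate 3, ZAT6 was the 1 regulator called, at -0.43 (adjusted p 0.0270).

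**Figure D3:**
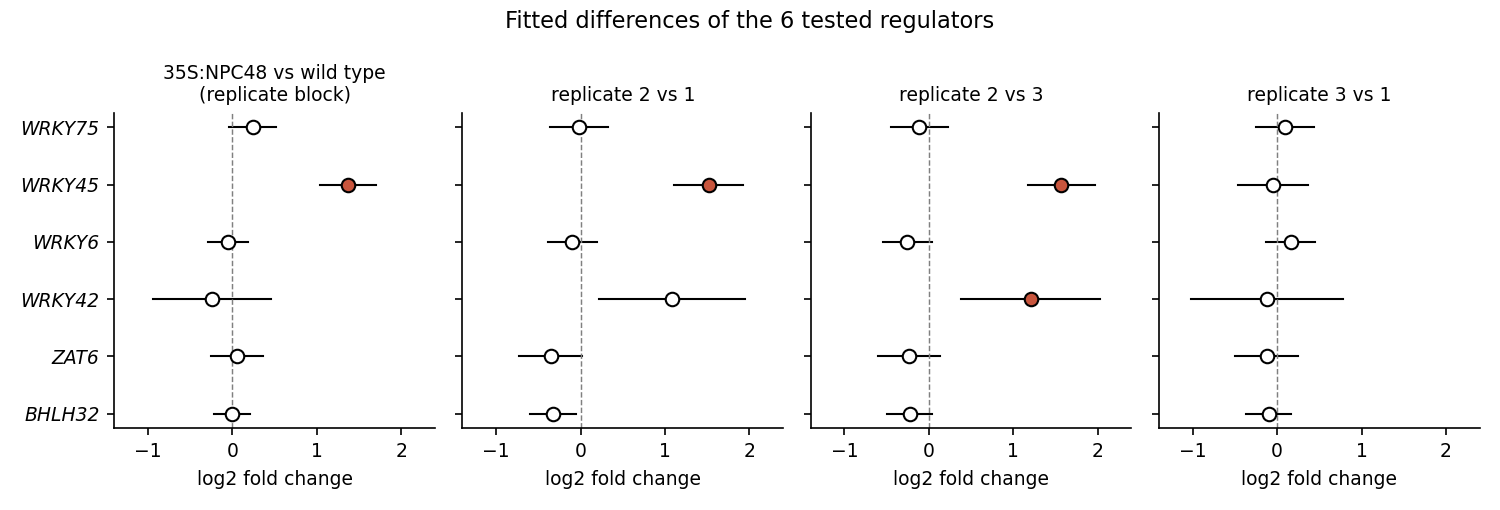
Log2 fold changes (x axis) of the 6 tested regulators in 4 comparisons, with 95% intervals as bars; filled points have an edgeR adjusted p under 0.05. WRKY45 is filled between genotypes with the replicate block at 1.37 and in both comparisons of replicate 2, at 1.52 and 1.57, and WRKY42 in the comparison of replicates 2 and 3 at 1.21.

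Close relatives of the regulators differed among themselves and between the contrasts. In the WRKY75 group, which also holds WRKY45, WRKY43, WRKY24 and WRKY56, 3 of 5 genes were called higher between replicates 2 and 1 and 1 of 5, WRKY45, between replicates 2 and 3, where 10.8% and 11.3% of all tested genes were called higher. The median log2 fold change of the 5 genes was 0.73 against replicate 1 and 0.17 against replicate 3. WRKY43, named after its values were seen, rose by 0.98 against replicate 1 and was not called (edgeR adjusted p 0.0509). Against replicate 3 it had 0.17 (adjusted p 0.685). WRKY56 and WRKY24 both rose by 0.73 against replicate 1 (edgeR adjusted p 0.0217 and 0.0443). Against replicate 3 they had 0.16 and 0.19, with adjusted p of 0.528 and 0.527. The call of WRKY56 was lost on leaving out any library of replicate 1 or 2, and that of WRKY24 on leaving out any of these but 35S:NPC48 replicate 1. Of the 8 tested genes grouped with WRKY6 and WRKY42, WRKY31 was the 1 called higher in both contrasts. WRKY31 measured 10.3, 32.0 and 16.8 CPM across wild type, and 12.8, 32.3 and 12.1 CPM across 35S:NPC48, so both replicate 2 libraries lay above the other 4. It rose by 1.50 ± 0.20 (SE) against replicate 1 and 1.15 ± 0.19 against replicate 3 (edgeR adjusted p 0.00210 and 0.00568), and leaving out any single library did not end these calls. WRKY72 and WRKY47, of the same group, were lower in replicate 2 than in replicate 3, by -0.83 and -0.60 (edgeR adjusted p 0.0128 and 0.0310). Both of these calls were lost without wild type replicate 2, and that of WRKY47 also without 35S:NPC48 replicate 2 or wild type replicate 3 and with DESeq2.

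Among relatives of ZAT6, ZAT5 was lower in replicate 2 than in replicates 1 and 3, by -0.56 and -0.65 (edgeR adjusted p 0.0328 and 0.0166), while the stress gene ZAT12 was higher than in replicate 3 by 0.66 (adjusted p 0.0315). The ZAT5 calls were lost without either replicate 2 library, the first also without either replicate 1 library and with DESeq2, and the ZAT12 call was lost without 35S:NPC48 replicate 2. BHLH30, a relative of BHLH32, was lower in replicate 2 by -0.47 and -0.79 against replicates 1 and 3 (edgeR adjusted p 0.0413 and 0.00603), and BHLH106 was lower than in replicate 3 by -0.55 (adjusted p 0.0368). All 3 of these calls were lost without wild type replicate 2. The call of BHLH106 and the first of BHLH30 were also lost without 35S:NPC48 replicate 2 and with DESeq2, that of BHLH106 without wild type replicate 3, and the first of BHLH30 without either replicate 1 library. LHW, the known dimer partner of BHLH32, had 0 reads in all 6 libraries. Absence of its RNA and reads not assigned to it cannot be told apart here. Of the 6 genes of the MYB62 group, 2 were tested and 0 were called in any comparison. Between the genotypes, 0 genes of these groups were called without the block and 1, WRKY45, with it.

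Genes that these regulators are reported to control, and PHO1;H1, for which no regulator is named here, were read in the same fits. From 15 such genes, listed with results of these data already known, 14 were tested and 0 were called between the genotypes with or without the block, with a blocked median log2 fold change of -0.06 against 0.01 over all tested genes. In replicate 2 against replicate 1, 6 were called higher and 2 lower, where 10.8% and 9.2% of all tested genes were, with a median of 0.07 against -0.0034 over all tested genes. Against replicate 3, 6 were called higher and 0 lower, where 11.3% and 10.4% of all tested genes were, with a median of 0.47 against -0.016. The same 6 genes were higher in both contrasts. Leaving out single libraries gave 4 to 7 genes called higher in each contrast, and 0 to 2 lower against replicate 1 and 0 to 1 against replicate 3. Both lower calls were lost without either replicate 2 library.

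PHT1;4 and PHO1;H1 showed the largest rises among them. PHT1;4, a high-affinity phosphate transporter reported as a target of WRKY75, had wild type levels of 39.9, 589 and 56.5 CPM and 35S:NPC48 levels of 39.9, 564 and 40.3 CPM. Both replicate 2 libraries lay far above the rest, by 3.86 ± 0.16 and 3.58 ± 0.16 on the log2 scale (edgeR adjusted p 8.26e-06 and 1.26e-05). PHO1;H1, the closest homologue of PHO1, measured 25.5, 98.0 and 24.2 CPM across wild type, and 14.5, 98.7 and 22.4 CPM across 35S:NPC48, with rises of 2.30 and 2.09 (edgeR adjusted p 0.000265 and 0.000400). PHT1;1, the reported target of WRKY45 and WRKY42, rose by 1.11 and 0.82 (edgeR adjusted p 0.0128 and 0.0350), and both calls were lost without 35S:NPC48 replicate 2, the first also without wild type replicate 1. Its reads can be shared with near-identical PHT1 copies, and it is named after its values were seen. PHO1, the gene that WRKY6 and WRKY42 repress, was lower in replicate 2 than in replicate 1 by -0.79 ± 0.14 (edgeR adjusted p 0.00751) and was not called against replicate 3, at -0.23 (adjusted p 0.273). The PHO1 call was lost without wild type replicate 1 or either replicate 2 library. PHO1 is likewise named after its values were seen, and it had wild type levels of 752, 428 and 452 CPM and 35S:NPC48 levels of 767, 455 and 586 CPM.

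PPCK1, a kinase of phosphoenolpyruvate carboxylase that BHLH32 holds down, measured 134, 444 and 140 CPM across wild type, and 141, 404 and 136 CPM across 35S:NPC48. It rose in replicate 2 by 1.63 ± 0.12 and 1.62 ± 0.12 (edgeR adjusted p 0.000129 and 0.000146). PPCK1 overlaps an antisense gene, AT1G08645, and the strand setting of the counting is not given, so their reads cannot be told apart. Its relative PPCK2, named after its values were seen, rose by 0.92 and 0.81 (edgeR adjusted p 0.00296 and 0.00487). BHLH32 itself stood lowest in replicate 2 within each genotype, at 38.3 and 40.8 CPM against 46.0 to 51.6 CPM in the other 4 libraries, without being called. The flowering gene SOC1, reported to be lowered when MYB62 is overexpressed, stood at 1.49 to 3.12 CPM in replicates 1 and 3 and at 8.34 and 5.67 CPM in replicate 2, a rise of 1.61 and 1.53 (edgeR adjusted p 0.00555 and 0.00575). Both SOC1 calls were lost without 35S:NPC48 replicate 2, with adjusted p of 0.0561 and 0.0774. The other gene called lower against replicate 1, GA3OX1 of gibberellin synthesis, fell by 0.74 on the log2 scale (edgeR adjusted p 0.0144). GA3OX1 is named after its values were seen, and its call was lost without either replicate 2 library or 35S:NPC48 replicate 1.

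Other reported targets were not called. CPC, a root hair gene reported as repressed by WRKY75, had log2 fold changes of -0.02 and -0.06, and the glutathione synthesis genes GSH1 and GSH2, reported targets of ZAT6, had 0.01 and -0.01 and -0.06 and -0.21 (edgeR adjusted p from 0.198 to 0.976). They too are named after their values were seen. Root hair markers did rise in replicate 2, with 6 of 7 called higher against replicate 1 and 5 of 7 against replicate 3, where 10.8% and 11.3% of all tested genes were. PRP3, the most abundant of them, rose by 1.74 and 1.18 (edgeR adjusted p 0.000567 and 0.00331). Their summed level was 200, 561 and 330 CPM across wild type and 235, 469 and 266 CPM across 35S:NPC48, and their part in the changes of the regulators was not tested. In bulk roots, more cells of a type and more RNA per cell cannot be told apart. None of the 6 xylem markers was called in these contrasts. Summed shoot markers, at 61.3 and 111 CPM in the replicate 2 libraries and 78.2 to 186 CPM in the rest, overlapped between the replicate numbers. The 9 tested shoot markers had median log2 fold changes of -0.76 and -0.81 in replicate 2 against replicates 1 and 3, and 1, LHCB4.1, was called lower, against replicate 1 (-1.01, edgeR adjusted p 0.0136). LHCB4.1 is named after its values were seen, and the part of shoot material in the changes of the regulators was not tested.

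**Figure D4:**
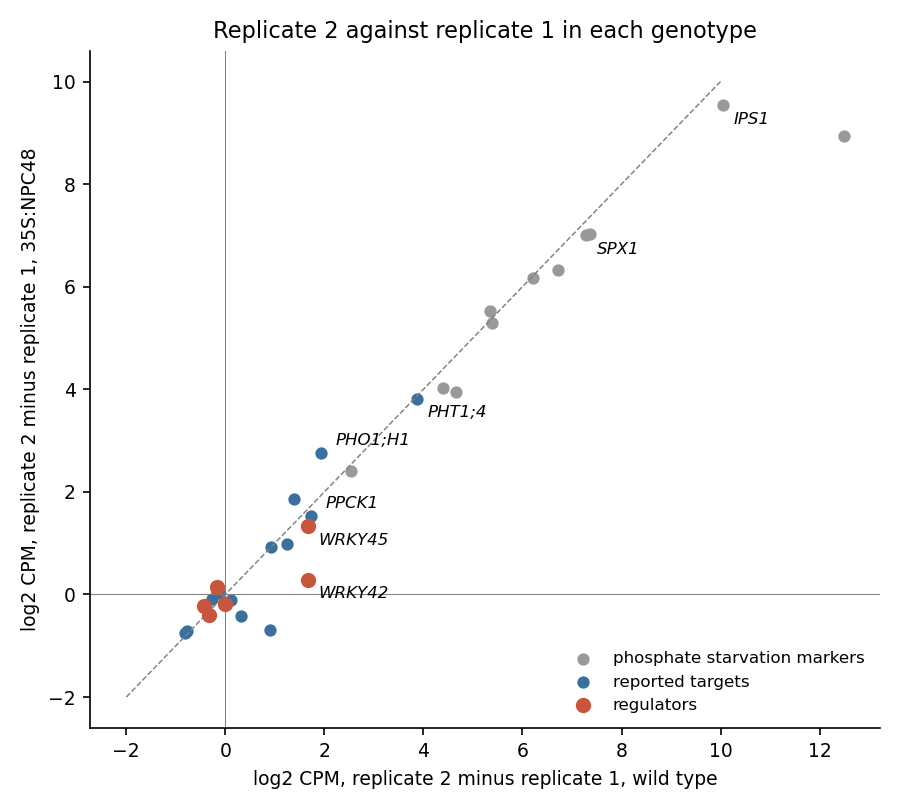
Log2 CPM of replicate 2 minus replicate 1 in wild type (x axis) against the same difference in 35S:NPC48 (y axis) for phosphate starvation markers, reported targets and the 6 tested regulators; the dashed line marks equal differences. Phosphate starvation markers and PHT1;4 lie high near the line, WRKY45 lies near 1.5, WRKY42 lies to the right of the line, and the other 4 regulators lie near 0.

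Against the phosphate starvation markers, the changes of the regulators were small. All 11 tested markers of 12 listed were called higher in replicate 2 in both contrasts, with median log2 fold changes of 6.20 and 5.41, and 0 were called between the genotypes. SPX1 rose by 7.17 ± 0.31 and 6.91 ± 0.31 and IPS1 by 10.29 ± 0.23 and 9.25 ± 0.20 on the log2 scale. The rise of WRKY45 in replicate 2, at 1.52 and 1.57, was close to that of PPCK1 and far below that of PHT1;4. Over all tested genes, 7.31% were called higher in replicate 2 in both contrasts and 6.35% lower.

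Within the WRKY family, more genes were called lower in replicate 2 than higher. Of 68 listed WRKY genes other than the 4 described above, 50 were tested, and 0 were called between the genotypes with or without the block. Against replicate 1, 5 were called higher and 10 lower, where 10.8% and 9.2% of all tested genes were. Against replicate 3, 2 were higher and 12 lower, where 11.3% and 10.4% of all tested genes were. Leaving out single libraries gave 1 to 8 higher and 2 to 20 lower in the first contrast, and 1 to 4 higher and 5 to 20 lower in the second. In both contrasts at once, WRKY31 was higher and 8 were lower, namely WRKY65, WRKY15, WRKY17, WRKY23, WRKY19, WRKY53, WRKY7 and WRKY27. The median log2 fold change over the 50 genes was -0.19 and -0.27 in these contrasts, against -0.0034 and -0.016 over all tested genes. The frequencies of the directions were not compared by a test.

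The genes whose log2 CPM followed each regulator most closely over the 6 libraries are given as a description, since all share the same libraries and depth. For WRKY45 they were AT1G08230 (Pearson r 0.987), the phospholipase C gene PLC1 (0.986) and AT3G02640 (0.982), of which AT3G02640 lies in the same chromosome 3 stretch. PLC1 had wild type levels of 6.86, 13.9 and 6.66 CPM and 35S:NPC48 levels of 12.3, 26.2 and 11.5 CPM. Its high replicate 2 and higher 35S:NPC48 level follow from its being picked by its match to WRKY45. As for WRKY45, wild type replicate 2 lay above replicates 1 and 3 of 35S:NPC48. For WRKY75 they were RPH1 (0.971), PFD5 (0.969) and AT1G77525 (0.966), and for WRKY6 they were ATL9 (0.993), AT4G38250 (0.990) and AT3G52710 (0.985). WRKY42 was followed by BIN4 (0.988), MEE13 (0.979) and EMB3147 (0.979), and ZAT6 by AT5G41100 (0.997), LON2 (0.994) and PETC (0.994). BHLH32 was followed by J11 (0.989), AT5G54090 (0.989) and AT1G04390 (0.988). Among the regulators themselves, WRKY42 and BHLH32 ran most opposite to each other, with r of -0.899, and WRKY45 and WRKY75 had r of 0.386.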

How the data were processed

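The authors deposited raw counts per gene for each library. The genome build TAIR10 and the tools STAR 2.5.2b, Trimmomatic 0.36, Subread 1.6.5 and featureCounts are named, with no settings, per the submitters' processing notes. Per the labels' protocols, libraries followed Illumina TruSeq RNA. Not given in the sources used here are the strand setting, the annotation release and how multi-mapping reads were counted. Of the 29613 IDs, 28494 matched TAIR10.1, whose annotation gave names, exon lengths and sequences. The deposited files hold IDs and no coordinates.

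From the deposited counts, genes were kept by filterByExpr (minimum count 10, minimum total 15), scaled by TMM and tested with edgeR 4.0.16 in R 4.3.3, with Benjamini-Hochberg adjustment over 19608 genes and a threshold of 0.05. Standard errors come from the F statistic. Log2 CPM used a prior count of 2. Alternatives were the replicate block, DESeq2 1.42.0 (without the filter), limma-voom (limma 3.58.1), DESeq2's size factors, no filter, no genotype term, and leaving out libraries. The code was tested on simulated data.

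Deviations from the group means correlated between equal replicate numbers of the genotypes at 0.528, 0.830 and 0.368 for replicates 1, 2 and 3. The numbers were taken to pair the libraries. Crossed values for replicates 1 and 3 were 0.385 and 0.341, so the check did not tell replicates 1 and 3 apart. With replicate 2 far from the rest, replicates 1 and 3 deviate the other way in both genotypes, whatever their pairing. The labels state no shared day. Counts differed between all library pairs of a genotype far beyond sampling (chi-square divided by its degrees of freedom, 16.5 to 99.6). The limit of 3 counts covers counting error only.

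The 7 regulators, the gene lists and the tests were chosen with earlier results of these data known. Genes named beside the regulators were drawn from genes of each list called between genotypes, up to 4 of each list with the largest change among those called between replicate numbers, SPX1 and IPS1, the 3 genes nearest in pattern to each regulator, the neighbours of WRKY45 and the most abundant cell type markers. Not every gene picked by this rule was named, and those left out include phosphate starvation and cell type markers. Exceptions are stated where they occur.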

Additional observations from a re-analysis of the deposited data

How the results depend on the processing

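The count of genes called between genotypes was 2 in the fit without a block, 153 with DESeq2 (105 higher, 48 lower), 0 with limma-voom, 237 with the replicate block, and 191, 118 and 1938 with the block but without replicate 1, 2 or 3. It was 46 without both replicate 2 libraries and no block, a setting added after the data were seen. Leaving out any single library gave 0 calls, except wild type replicate 2. For WRKY45 the log2 fold change between genotypes was 1.29 without the block and not called, 1.37 with the block, 1.34, 1.53 and 1.22 with the block and without replicate 1, 2 or 3, and 1.53 without replicate 2 and no block, all called, and it ranged from 0.68 (without 35S:NPC48 replicate 2) to 2.14 (without wild type replicate 2) over the fits that left out libraries. The block changed no other regulator's call. Some uncalled values turned sign. Over the fits that left out libraries, the genotype log2 fold change ranged from -0.12 to 0.090 for BHLH32, from -0.63 to 0.41 for WRKY42, from -0.16 to 0.068 for WRKY6 and from -0.097 to 0.17 for ZAT6 (0.25 with the block and without replicate 3). Without both replicate 2 libraries and no block, WRKY42 had 0.16 and ZAT6 -0.023. With the block, BHLH32 had 0.046 and ZAT6 -0.068 without replicate 1, WRKY42 had 0.15 and ZAT6 -0.036 without replicate 2, and WRKY6 had 0.045 without replicate 3.

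For replicates 2 and 1, without single libraries, 1207 (without 35S:NPC48 replicate 2) to 7967 (without 35S:NPC48 replicate 3) genes were called, against 3911. Ranges were -0.42 to -0.25 for BHLH32, 0.44 to 1.58 for WRKY42, -0.26 to 0.045 for WRKY6, -0.18 to 0.13 for WRKY75 and -0.54 to -0.18 for ZAT6. For replicates 2 and 3, 1115 (without 35S:NPC48 replicate 2) to 6604 (without 35S:NPC48 replicate 3) genes were called, against 4247, and ranges were 0.65 to 1.67 for WRKY42, -0.42 to -0.11 for WRKY6, -0.52 to 0.051 for ZAT6, -0.053 to 0.35 for WRKY56. Among other named genes, CPC ranged from -0.46 to 0.36 and from -0.49 to 0.34 in the contrasts with replicates 1 and 3, GSH1 from -0.091 to 0.098 and from -0.10 to 0.083, and AT3G01980 from -0.0053 to 0.63 in the second. WRKY42 lost this call at 1.21 with DESeq2, 1.19 with limma-voom and 1.22 without the genotype term. Without that term WRKY45 had 1.52 and 1.48 in the contrasts of replicate 2, no longer called. For replicates 3 and 1, DESeq2 called 210 genes and fits without single libraries 0 to 2145. WRKY45 ranged from -0.29 to 0.13, WRKY42 from -0.75 to 0.40, WRKY6 from -0.0095 to 0.30, WRKY75 from -0.064 to 0.25 and ZAT6 from -0.43 to 0.15. In that contrast WRKY45 had 0.039 without the genotype term and WRKY42 0.0012 with limma-voom. The cause of these changes was not tested. WRKY42 had 26 to 130 reads a library, and MYB62, with 1 read in all, was not tested.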

Other observations

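Regulators of stress and touch responses were read beside the low-phosphate regulators because several WRKY and ZAT genes also respond to handling. Of 12 listed genes 11 were tested, and 0 were called between the genotypes with or without the block. In replicate 2 against replicate 1, 4 were lower and 0 higher, and against replicate 3, 3 were lower and 0 higher, where 9.2% and 10.4% of all tested genes were called lower. ERF6, an ethylene response factor of the stress response, measured 27.0, 12.4 and 36.9 CPM across wild type, and 31.4, 14.4 and 25.1 CPM across 35S:NPC48, and was lower in replicate 2 by -1.12 and -1.21 on the log2 scale (edgeR adjusted p 0.00979 and 0.00680). Both of its replicate 2 libraries lay below the other 4. WRKY53, a WRKY factor of leaf ageing and defence, was lower by -1.44 and -1.62 (edgeR adjusted p 0.0269 and 0.0145), at 1.20 to 5.60 CPM, and it overlaps the annotated gene AT4G23800. The zinc finger gene SZF1 was lower by -0.66 and -0.67 (edgeR adjusted p 0.0324 and 0.0282), and TCH4, a touch-induced cell wall enzyme gene, was lower against replicate 1 by -1.10 (adjusted p 0.0303). The calls of WRKY53, SZF1 and TCH4 were lost without 35S:NPC48 replicate 2, those of SZF1 and TCH4 without wild type replicate 2 as well, and the calls of all 3 against replicate 1 also without 35S:NPC48 replicate 1. ERF6 stayed called without any single library.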
